A study of Caenorhabditis elegans with 2 samples.

Results

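The genes described here are the 8 genes that encode the subunits of the DREAM complex of Caenorhabditis elegans, lin-35, efl-1, dpl-1, lin-9, lin-37, lin-52, lin-53 and lin-54, out of 19985 protein-coding genes in the annotation. They were taken by name, and the set was chosen by peak lists already in view: the presence of a listed summit near the 5' end, its signal and its rank are the values that bore on the choice, so these are given as a description and were not tested. The lists come from a transcription factor ChIP-seq experiment on whole worms of mixed sex at the L2 larval stage. The worms belonged to strain OP231 (unc-119(ed3) III; wgIs231), in which a transgene supplies the protein ZK546.5 fused at its C terminus to GFP and FLAG. The labels give 1 group with 2 biological replicates and do not say from which promoter the transgene is expressed. Worms without the tagged protein were not analysed here, the antibody is named only by its target, and the control library used for peak calling was not analysed here.

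DREAM is a repressor of cell cycle genes in cells that do not divide, conserved between worms and mammals. It joins 3 kinds of subunit. An E2F-DP pair (EFL-1 and DPL-1) binds DNA, a pocket protein of the retinoblastoma family (LIN-35) binds E2F, and the MuvB core (LIN-9, LIN-37, LIN-52, LIN-53 and LIN-54) holds the parts together and adds a further DNA contact. In the worm these genes are best known from vulval development, where they belong to the synthetic multivulva (synMuv) class B, and from keeping germline genes silent in the soma. The question put to the data here is at which of the subunits' own genes tagged ZK546.5 was recovered, not whether ZK546.5 works with the complex.

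The authors' thresholded list holds 491 peaks that passed a comparison of the replicates by the irreproducible discovery rate (IDR). The pooled list of peaks and background regions from which it was drawn holds 30000, and the replicates' own lists hold 19076 and 30000. The 491 thresholded peaks were the strongest 491 of the pooled list, with a lowest signal of 45.93, and the next pooled region had 45.91. The signal is the authors' own value for a peak against the control; it ranks peaks within a list and has no common scale between lists. Read depth is not given in the sources used here. A gene was counted as having a summit if one lay in the window from 1000 bp before to 200 bp past the first base of any of its annotated transcripts (Ensembl release 115).

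Tagged ZK546.5 had a thresholded peak at 3 of the 8 DREAM genes: lin-53, lin-54 and lin-9. Among all protein-coding genes, 578 had one, or 2.89%. These 3 members belong to the MuvB core, but lin-37 and lin-52 of the same core had no listed summit in the window. At lin-53 and lin-54 the same summit also lay in the window of a divergent coding gene. A weaker, sub-threshold summit lay upstream of efl-1 and another upstream of lin-35, which brought the members with any pooled summit to 5 of 8, against 40.8% of protein-coding genes. The remaining 3 members, dpl-1, lin-37 and lin-52, had no summit in the window in any list, as did 42.7% of protein-coding genes. Because the members were chosen with these lists in view, the difference between 3 of 8 and 2.89% was not tested, and the counts for any summit and for no summit rest on 8 genes and lie near the shares of all genes. Every listed summit in a member's window was upstream of the annotated 5' end, by 120 to 850 bp.

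**Figure D1:**
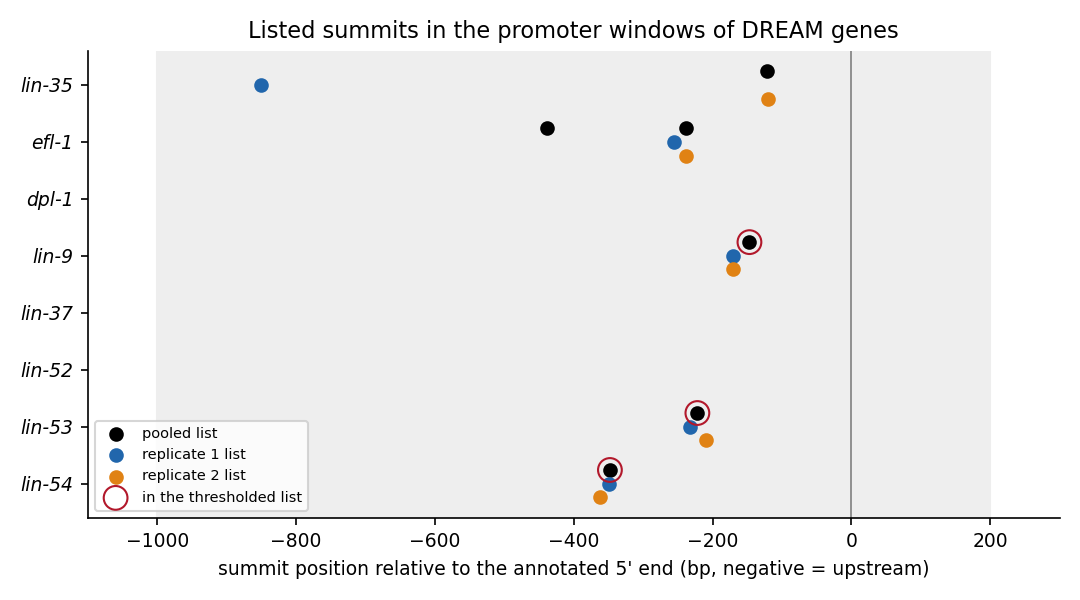
Position of every listed summit in the window of each DREAM gene, in bp from the annotated 5' end (x axis; negative is upstream, the shaded band is the window of 1000 bp upstream to 200 bp downstream), for the pooled list and the 2 replicate lists (colours). Rings mark summits of the thresholded list, at lin-9, lin-53 and lin-54; the replicates' summits lie close together at these 3 genes and at efl-1, and apart at lin-35.

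The lin-54 gene (WBGene00003037, chromosome IV 13241044 to 13243401, plus strand) encodes the MuvB subunit that in human cells recognises the cell cycle homology region (CHR), a short promoter element. Its peak spanned 13240576 to 13240819 (ce11), 244 bp wide. The signal was 298 in the pooled list, 177 in replicate 1 and 127 in replicate 2, at ranks 53, 56 and 52. The 3 lists thus put the peak at nearly the same rank, and the replicates' summits were 13 bp apart. The summit lay 348 bp upstream of lin-54 in the pooled list, 350 bp in replicate 1 and 363 bp in replicate 2. The other side of the same promoter belongs to rpl-12, a large-subunit ribosomal protein gene on the opposite strand, whose 5' end was 45, 43 and 30 bp from those summits. In all 3 lists the summit was therefore closer to rpl-12 than to lin-54, by 303 to 333 bp, a gap many times the 13 bp between replicates. When each summit was given only to the coding gene with the nearest 5' end, lin-54 had none. Under that rule 2 of the 8 members, lin-9 and lin-53, kept a thresholded summit, against 1.88% of protein-coding genes. The thresholded summit of lin-53 was only 23 bp closer to lin-53 than to its neighbour nra-2.

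The lin-9 gene (WBGene00002998, chromosome III 8900237 to 8904131, minus strand) encodes a scaffold subunit of the MuvB core. Its peak was the only thresholded one of the 3 with no other coding 5' end within the window. It spanned 8904222 to 8904354 and was narrow, at 133 bp: only 12 of the 491 thresholded peaks were narrower, and 379 had the same width of 356 bp. The signal was 134 in the pooled list, 81.7 in replicate 1 and 47.6 in replicate 2, at ranks 131, 130 and 151. The summit lay 147 bp upstream in the pooled list and 171 and 170 bp upstream in replicates 1 and 2, so the replicates were 1 bp apart while the pooled summit was offset from both towards the gene. In the lists of replicates 1 and 2 the peak was 376 and 336 bp wide, the median width of each of those lists. It was thus narrow in the pooled and thresholded lists only. The closest other coding gene was unc-32, which encodes a subunit of the vacuolar proton pump, with its divergent 5' end 1337 bp away. In replicate 2, unc-32 had a weak summit of its own at rank 5442, and in the other lists it had none.

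The sequence around the summit is shown for the members with a summit outside the chromosome that holds lin-53 and lin-35, since these bases are what the peaks mark. They were read from the RefSeq genome of WBcel235 (ce11), 5' to 3' on the strand of the named member. Capitals mark CHR-type words (TTTGAA or TTCGAA) and E2F words (TTTCCCGC, TTTCGCGC, TTTGCCGC or TTTGGCGC) on either strand, so that TTTGAA on the opposite strand reads TTCAAA. The lin-54 stretch (chrIV:13240652-13240746, summit at base 45) begins next to the first base of rpl-12. Those of lin-9 (chrIII:8904228-8904328) and efl-1 (chrV:16965864-16965964) have the summit at base 51.
lin-54: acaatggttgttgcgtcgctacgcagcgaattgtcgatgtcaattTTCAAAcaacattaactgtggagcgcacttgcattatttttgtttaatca
lin-9: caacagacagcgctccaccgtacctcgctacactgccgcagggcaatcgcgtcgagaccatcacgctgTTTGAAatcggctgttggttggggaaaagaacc
efl-1: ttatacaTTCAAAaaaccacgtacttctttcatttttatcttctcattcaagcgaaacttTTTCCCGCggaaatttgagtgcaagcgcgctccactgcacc

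A CHR-type word lay within 50 bp of the pooled summit at 4 of the 5 members that had a summit: lin-54, where it began 1 bp past the summit, lin-9 (18 bp past), lin-53 (37 bp past) and efl-1 (at -43 bp). Words of this family were found at 22.9% of the 490 thresholded summits with a full window and at 38.4% of 29509 other pooled summits. An E2F word lay near 1 of the 5 summits, that of efl-1, where TTTCCCGC began 10 bp past the summit towards the gene. Near thresholded summits an E2F word was found in 4.08% and near other pooled summits in 2.07%. None of the 5 held GAGAGA (21.02% of thresholded and 5.77% of other pooled summits) or GGGCGG (7.14% and 2.14%), counted on both strands. TTTTTT lay near the summits of efl-1, where on the opposite strand it overlaps the CHR-type word, and of lin-35 (17.6% of thresholded and 53.7% of other pooled summits). The GC content of the 101 bp around the summit was 57.4% at lin-9, 56.4% at lin-53, 40.6% at efl-1, 39.6% at lin-54 and 37.6% at lin-35, against medians of 48.5% at thresholded and 32.7% at other pooled summits. The higher of the members' values were thus those of lin-9 and lin-53.

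In the 250 bp upstream of the outermost 5' end, a window chosen after the summits were seen and available for all 8 members, an E2F word occurred at 3: efl-1 (229 bp upstream, the one at its summit), lin-53 (144 bp) and lin-9 (80 bp). Of 19876 protein-coding genes with a full window 4.17% had one. CHR-type words are frequent there, in 64.3% of genes and in 6 of the 8 members, all but lin-35 and lin-52. GAGAGA occurred at dpl-1, lin-37 and lin-9, against 19.1% of genes. A word found is a description of these bases and not evidence of a bound site.

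The lin-53 gene (WBGene00003036, chromosome I 9618196 to 9619760, minus strand) encodes a histone-binding WD-repeat protein of the RbAp48 family that also serves in the NuRD deacetylase complex and in histone chaperones. It had the strongest peak of the 8 members, at 9619849 to 9620124 (276 bp). The signal was 448 in the pooled list, 255 in replicate 1 and 198 in replicate 2, at ranks 42, 45 and 43. Across the 3 lists the rank moved by no more than 3 places. The summit lay 222 bp upstream in the pooled list, 232 bp in replicate 1 and 210 bp in replicate 2. The divergent neighbour nra-2 had its 5' end 245, 235 and 257 bp from the same summits. The summit was nearer to lin-53 in each list, by 23, 3 and 47 bp, but the replicates' summits differed by 22 bp, so the distances do not separate the 2 genes. The paralog rba-1, a second RbAp48-type gene that follows lin-53 on the same strand, had no summit in its own window in any list.

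The efl-1 gene (WBGene00001161, chromosome V 16958590 to 16965675, minus strand) encodes the E2F subunit. Its stronger summit lay 239 bp upstream in the pooled list and in replicate 2 and 256 bp upstream in replicate 1. The signal was 40.8 in the pooled list, 19.7 in replicate 1 and 22.3 in replicate 2. The pooled rank of 582 fell below the last thresholded peak at 491. The replicates placed the region apart in rank, 1633 in replicate 1 and 457 in replicate 2, a ratio of 3.57. The ratio was that large or smaller for 88.9% of the 487 thresholded peaks found in both replicate lists, whose median ratio was 1.35. All of those peaks were stronger than that of efl-1, so the share does not compare it with peaks of its own strength. At the weak end of the thresholded list the ranks in replicates 1 and 2 were close at some peaks, such as mdf-2 with nduv-3 (656 and 471). At others they were far apart, such as knl-3 with T10B5.3 (329 and 5702). Among as many of the strongest peaks of replicate 2 alone as the thresholded list holds, efl-1 was included and 4 members had a summit, against 2.77% of protein-coding genes; with replicate 1 alone it was 3 members, against 2.77%. The closest competing coding gene, fbxa-90, an F-box gene, lay 900 bp away. A second pooled summit 438 bp upstream was weak, at rank 24195.

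The lin-35 gene (WBGene00003020, chromosome I 5807709 to 5815637, plus strand) encodes the worm's retinoblastoma-family protein. Its pooled summit lay 121 bp upstream with a signal of 19.2 at rank 7996. Replicate 2 had a summit 1 bp from it at rank 1531, with a signal of 14.8. Replicate 1 had no region overlapping that peak; its nearest summit was 850 bp upstream, at rank 16035, with a signal of 11.0. The replicates therefore did not place a summit at the same site upstream of lin-35. The divergent gene vps-51, for a vesicle tethering subunit, had a 5' end 297 bp from the pooled summit. The summit of replicate 1 lay 382 bp downstream of a vps-51 5' end, outside that gene's window, and closer to it than to lin-35.

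For dpl-1 (the DP subunit, chromosome II), lin-37 (a MuvB subunit, chromosome III) and lin-52 (the MuvB subunit that in human cells contacts the pocket protein, chromosome III), no listed region even overlapped the window. The nearest pooled summit was 7298 bp from the 5' end of dpl-1, at rank 6825, and 3723 bp from that of lin-37, at rank 22461. That of lin-52 was 1249 bp downstream, at rank 9136, while replicate 1 had a summit 1391 bp downstream with a signal of 20.2 at rank 1468 and replicate 2 had one 514 bp downstream with a signal of 7.39 at rank 18936. The nearest thresholded peaks were 200437, 81430 and 43777 bp away. With no read counts in the lists, the absence of a listed region sets no upper limit on occupancy. No thresholded summit lay inside the body of any of the 8 genes.

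**Figure D2:**
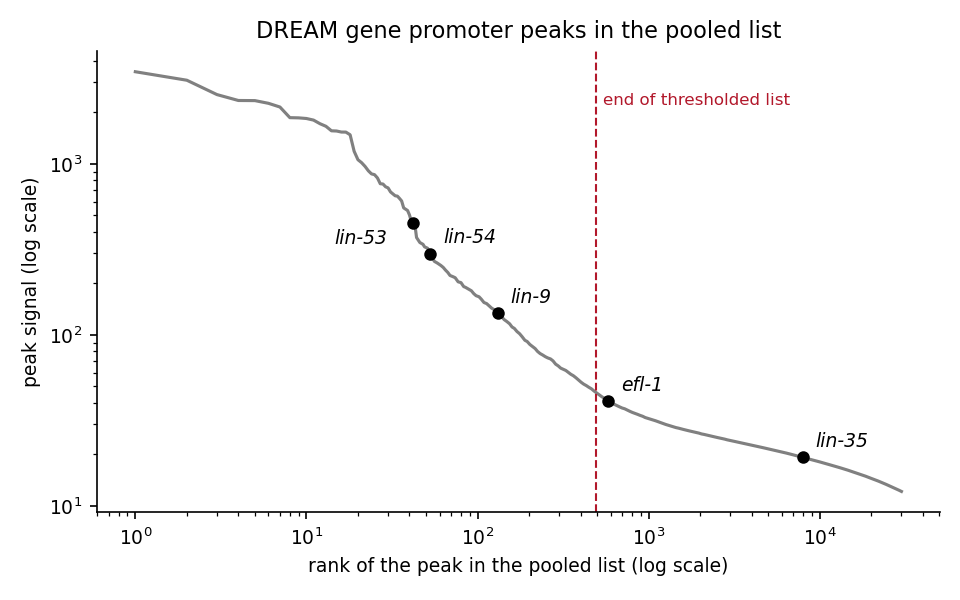
Signal of each pooled peak (y axis, log scale) against its rank (x axis, log scale), with the strongest promoter summit of the 5 DREAM genes that had one. lin-53, lin-54 and lin-9, at ranks 42, 53 and 131, lie left of the dashed end of the thresholded list at rank 491; efl-1 lies right of it at rank 582 and lin-35 at rank 7996.

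The 3 thresholded members were above the middle of the list. Their peaks were stronger than 91.4% (lin-53), 89.2% (lin-54) and 73.3% (lin-9) of the 491. Among the 8159 protein-coding genes with a pooled summit, lin-53 stood at place 67, lin-54 at 82, lin-9 at 166, efl-1 at 652 and lin-35 at 3368. All 3 peaks were narrower than the common width of 356 bp in the thresholded list, but that of lin-9 had the median width in the replicate lists. The ratio of ranks between the replicate lists was 1.05 for lin-53, 1.08 for lin-54 and 1.16 for lin-9, each below the median ratio of 1.35 over the thresholded peaks. That median includes much weaker peaks. Other peaks of like strength also had close ranks, such as those of tasp-1 with K01G5.10 (43 and 42), cbp-1 (52 and 49) and tos-1 (138 and 143). Not all did, as at the peak of pooled rank 71, which had no coding gene in its window (53 and 149). The summits of lin-53, lin-54 and lin-9 differed between replicates by 22, 13 and 1 bp, where the median over thresholded peaks was 22 bp. Among the DREAM genes lin-53 came before lin-54 in each of the 3 lists, at ranks 42 and 53 in the pooled one.

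**Figure D3:**
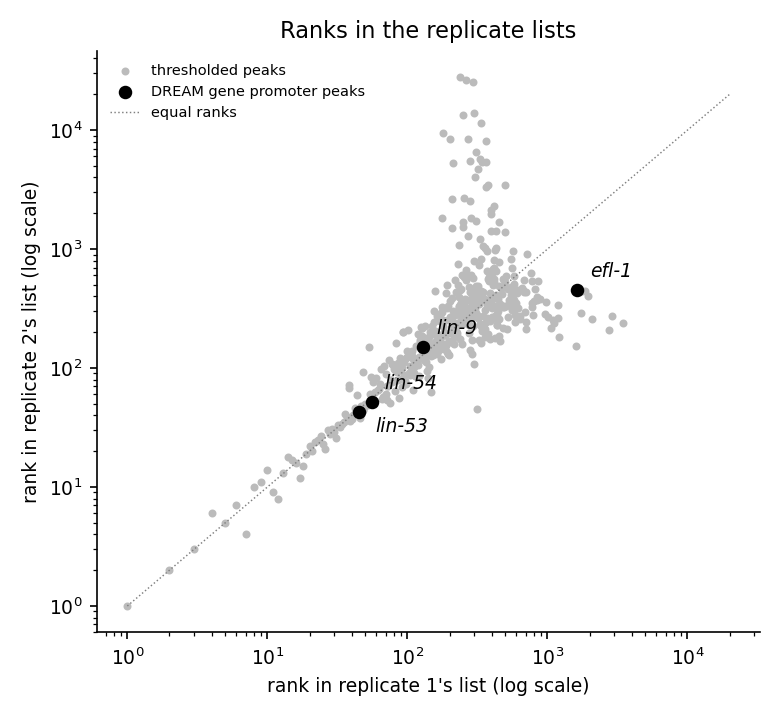
Rank in the list of replicate 1 (x axis) against rank in the list of replicate 2 (y axis), both on log scales, for thresholded peaks (grey) and for the DREAM promoter peaks found in both lists (black). lin-53, lin-54 and lin-9 lie near the dotted line of equal ranks, and efl-1 lies below it, at rank 1633 in replicate 1 and 457 in replicate 2.

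Likeness was measured as the absolute log2 ratio of ranks, summed over the 2 replicate lists. Among peaks with a coding gene in their window, that of tos-1 was one of those most like lin-9, at ranks 138 and 143 in replicates 1 and 2, with a summed ratio of 0.16. For lin-53 the most alike were the peak shared by tasp-1 and K01G5.10 (43 and 42, summed ratio 0.10) and a mitochondrial peak (48 and 44, 0.13). For lin-54 they were those of cbp-1, a histone acetyltransferase gene (52 and 49, 0.19), and of rps-12 with ska-3 (both 50, 0.22). Next above and below in pooled rank stood gex-3 and the peak of jmjd-1.2, F29B9.11 and mrps-21 for lin-9. For lin-53 the neighbours in rank were the tasp-1 peak and that of mitochondrial ND1, and for lin-54 a mitochondrial peak and 1 with no coding gene in its window. These likenesses rest on 2 samples and describe strength only.

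The members also differ in what lies upstream of them. The 5 with a pooled summit all had a divergent coding gene as their upstream neighbour, with a gap of 392 bp at lin-54, 417 bp at lin-35, 466 bp at lin-53, 1138 bp at efl-1 and 1483 bp at lin-9. Among the 3 without a summit, lin-37 followed ZK418.5 on the same strand after 60 bp, lin-52 followed ZK632.9 after 126 bp, and the 5' end of dpl-1 lay inside T23G7.2, which is transcribed from the opposite strand. Beyond that overlap dpl-1 too had a divergent upstream neighbour, T23G7.3, after 2079 bp. Close same-strand spacing is typical of worm operons, in which downstream genes are transcribed from a shared promoter; operon membership was not annotated in the reference used here. Neither ZK418.5 nor ZK632.9 had a summit in its own window in any list. Farther up from lin-37 on the same side, ZK418.13 had a weak pooled summit (signal 14.05, rank 21683) and a summit in each replicate list, and ZK418.6 had one in replicate 2 only; neither had a thresholded one. Over all protein-coding genes, 9.2% of the 1815 with a divergent neighbour within 500 bp had a thresholded summit, against 3.48% with a divergent neighbour farther off. For same-strand neighbours the shares were 2.15% within 500 bp and 1.01% beyond, and for 5' ends inside another coding gene 2.73%. For any pooled summit the shares lay closer together: 50.1% and 42.1% with a divergent neighbour within and beyond 500 bp, 41.1% and 37.6% with a same-strand one, and 37.7% for 5' ends inside another coding gene. Sharing was common in general: 66.4% of the 578 coding genes with a thresholded summit shared its window with another coding gene, and for 34.4% another coding 5' end was closer, as at lin-54. The part of this arrangement in which members had a summit was not tested.

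**Figure D4:**
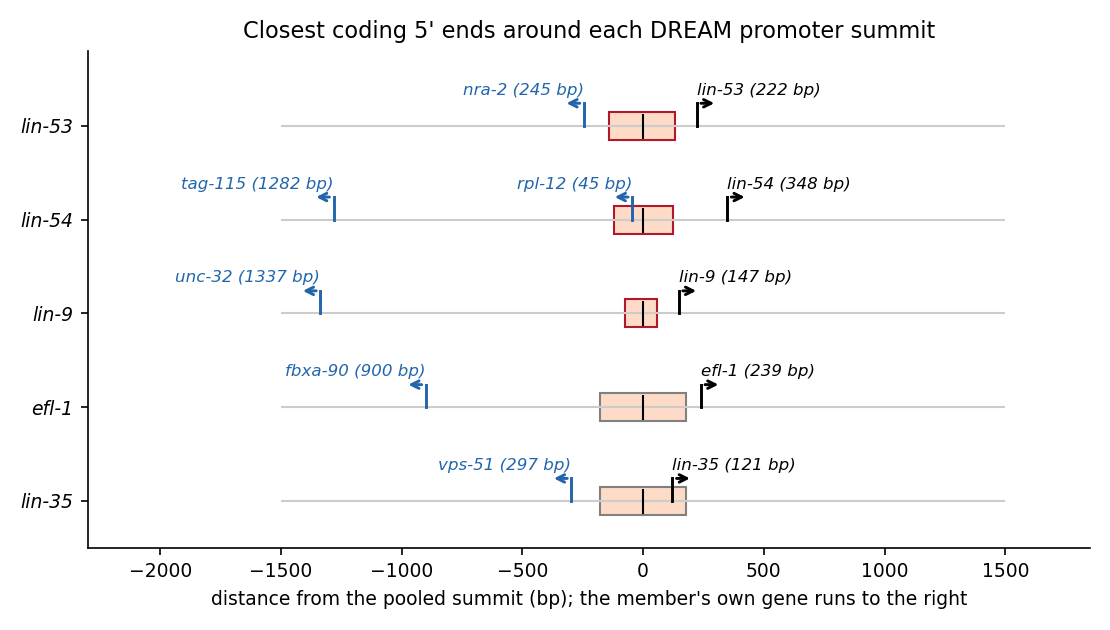
Closest annotated 5' end of each coding gene around the strongest pooled summit of the 5 DREAM genes with one (x axis, bp from the summit, turned so that the member runs to the right); boxes show the peak, outlined in red where thresholded. The lin-54 summit sits 45 bp from rpl-12 and 348 bp from lin-54, the lin-53 summit lies between lin-53 at 222 bp and nra-2 at 245 bp, and the closest other coding 5' end at lin-9 is that of unc-32 at 1337 bp.

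Thresholded peaks at genes that act with DREAM are read against the 2.89% of all coding genes that had one, and in lists this short a share near it cannot be told from 0. Of 12 other synMuv B and C genes none had one (exact 95% upper bound 26.5%), and neither did any of 4 synMuv A genes (60.2%) or of 9 cyclin, CDK and E2F genes around LIN-35 (33.6%). The strongest sub-threshold summits of the synMuv B and C genes were at lin-13, which encodes a zinc finger protein (signal 42.1, rank 559, 829 bp upstream), and at lin-36 (34.0, rank 886, 233 bp upstream). Those at hpl-2, a heterochromatin protein gene (31.7), epc-1 (24.03) and tam-1 (22.5) were weaker. Of 12 partners of LIN-53 outside DREAM, 1 had a thresholded peak (8.33%, exact 95% interval 0.211 to 38.5). This was hat-1, a type B histone acetyltransferase gene that acts with the histone chaperone. Its signal was 174 in the pooled list, 95.6 in replicate 1 and 77.0 in replicate 2, at ranks 95, 104 and 87. The summit lay 215 bp upstream of hat-1. It also lay in the window of M03C11.3, the closest other coding gene, whose 5' end was 753 bp away. The chromatin assembly gene chaf-2 (41.9, rank 564), mep-1 (37.6, rank 686) and the NuRD gene lin-40 (37.1, rank 721) lay below the threshold.

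Cell cycle genes of the kind that DREAM binds had 1 thresholded peak among 22 (4.55%, exact 95% interval 0.115 to 22.8), close to the 2.89% of all coding genes. It was at pcn-1, which encodes the replication clamp PCNA, with a signal of 80.99 in the pooled list, 49.3 in replicate 1 and 28.3 in replicate 2, at ranks 221, 210 and 302. Its summit was 286 bp upstream. The next were the replicative helicase genes mcm-7 (34.4, rank 854) and mcm-2 (30.7, rank 1169), both below the threshold and each with a summit in the window in 1 replicate list only. Among the 5 lists the share of genes with any pooled summit ran between 33.3% and 66.7%, around the 40.8% of all coding genes. The median pooled signal of those that had one ran between 20.6 and 31.7, beside 17.7 for all coding genes with a pooled summit. For the 5 DREAM genes it was 134, which is the value of lin-9. Signal bore on the choice of the DREAM set, so its difference from the other lists is no result and was not tested.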

How the data were processed

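ChIP-seq peak lists of 2 biological replicates (1 group) were used. Per the submitters' records, the authors called peaks for either replicate alone and for the pool, against a control library, and derived the thresholded list by IDR; the sources used here do not give aligner, caller or threshold. Signal values are as the authors deposited them, not scaled between lists. Only ce11 lists were used, since no ce10 annotation was at hand; ce11 and WBcel235 share coordinates, and no peak ran past a chromosome end. Summits were placed against Ensembl release 115 with Python 3.11.15 and pandas 2.3.3, and peaks of different lists were matched by an overlap of at least 1 bp. The assignment and word search were tested on simulated data. No statistical test was made. Intervals are Clopper-Pearson and cover counting error only. The members, gene lists, words and naming rule were chosen with earlier results of these data known. Named are all members, their closest competing coding genes, pathway genes with a thresholded summit, and the coding genes of the peaks most like and next to each member in rank; the sub-threshold pathway genes and upstream neighbours were added after their values were seen. The peak closest to that of lin-9 by this rule is not reported here.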

Additional observations from a re-analysis of the deposited data

How the results depend on the processing

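The 3 thresholded members, lin-9, lin-53 and lin-54, were the same with a window of 500 or 2000 bp upstream, with the peak midpoint, with the outermost 5' end only, with the weaker peaks of the list left out (those below its median signal) and without replicate 2. With the nearest coding 5' end only, 2 remained (lin-9 and lin-53), and without replicate 1 there were 4, with efl-1 added. The number of members with any pooled summit was between 4 and 6 over its alternatives: lin-54 was lost with the nearest coding 5' end only, and lin-52 was gained with 2000 bp. The share of all coding genes with a thresholded summit, 2.89%, was 2.41% with 500 bp, 3.64% with 2000 bp, 1.88% with the nearest coding 5' end only and 1.5% with the weaker peaks left out. Of 20 recomputed rank percentages of single members 15 moved by less than 1 SD of the 2 replicates' values and 5, all without replicate 2, moved by more. With the 500 and 2000 bp windows the percentages did not change at all. The rest are the replicates' own values, set against an SD of those same 2 values, so the count is no measure of robustness. Without replicate 2 the list is that of replicate 1, with 19076 regions against 30000 in the pooled list. The ranks of lin-9, lin-53 and lin-54 in it were 130, 45 and 56, beside 131, 42 and 53 in the pooled list. The value for lin-35 there belongs to a different summit, 850 bp upstream. The cause of the moves was not tested. Read depth is unknown, so weak regions such as that of lin-35 cannot be given an error, and only the 2 replicates bear on it.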
